A study of Mus musculus with 12 samples.

Results

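The 37 genes described here act in the DNA damage checkpoint and in DNA repair. They were listed by name for their place in these pathways. Earlier results of these data were known when they were chosen, so that their counts are no independent test. They comprise 5 checkpoint genes, 16 genes of homologous recombination, 7 Fanconi genes, 2 mismatch repair genes, 3 excision repair genes and 4 genes of end joining. Of the 37, 36 had a probe set whose annotation names that gene alone, out of 18193 such genes on the array, and no such probe set was found for Xrcc2. Where a gene had several probe sets, the one with the highest mean over the 12 arrays stands for it.

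Expression was measured in pituitary of mice with a disrupted Pomc gene and in normal mouse pituitary on Affymetrix mouse genome arrays, which detect transcripts with sets of short oligonucleotide probes. Tumors of heterozygous POMC KO mice, which keep 1 functional Pomc allele, were on 8 arrays, tumors of homozygous POMC KO mice, which keep none, on 2, and normal pituitary on 2. The labels name no agent given to any group. The knockout is present in every cell of the animal, and the tumors arise spontaneously. The strain, age and sex of the mice on the arrays are not given in the sources used here, and the study's methods name a pool of normal pituitary as the reference.

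By number, the tumor arrays formed 5 near-identical pairs (1 with 2, 3 with 4, and so on). Within a pair the correlation across probe sets was 0.997 to 0.998 and at most 4 probe sets differed by more than 2-fold, whereas heterozygous arrays of different pairs differed at 433 to 982 probe sets and the 2 normal arrays at 309. Each pair was averaged and counted as 1 sample, giving 4 heterozygous samples (1-2, 3-4, 5-6 and 7-8), 1 homozygous sample and 2 normal samples. The labels number every array separately and do not say that paired arrays share a tumor, so that the pairing is inferred from the values alone. The homozygous tumor below stands for the average of 2 arrays, which may come from 1 or 2 animals. Nothing in the labels says that the normal arrays are separate animals, and the homozygous group has no spread of its own. Pomc, the targeted gene, was 7.92 lower on the log2 scale in the homozygous tumor than in normal pituitary (limma, adjusted p = 1.1e-06), and Pax7, a transcription factor of the intermediate lobe, had mean log2 signals of 9.71, 11.19 and 10.38 in normal, heterozygous and homozygous tumors. Xist, a transcript of female cells, had log2 signals of 10.93 and 11.25 in heterozygous samples 3-4 and 7-8 and 11.20 in the homozygous tumor, against 4.58 and 5.001 in heterozygous samples 1-2 and 5-6 and 5.07 and 4.57 in normal pituitary. The homozygous tumor thus differed in Xist from both normal samples, while the heterozygous samples held both levels.

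Cells that copy their DNA meet stalled and broken replication forks, which the kinase ATR and its effector CHK1 sense and which homologous recombination, with BRCA1 and BRCA2, repairs from the sister chromatid in S and G2 phase. The Fanconi proteins unhook crosslinks between the strands in the same phases. Mismatch repair follows the replication fork, base excision repair removes damaged bases at any time, and end joining with the Ku proteins ligates broken ends throughout the cell cycle. Transcription of many replication and recombination genes is driven by E2F factors at the entry into S phase.

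In heterozygous tumors, 7 of the 31 members that could be tested rose and none fell. These were the checkpoint genes Chek1 and Topbp1, the recombination genes Rad51ap1, Brca1, Exo1 and Brca2, and the excision gene Ung. The fitted changes ran from 2.10-fold for Brca2 to 6.99-fold for Rad51ap1. Rad51ap1, Brca1 and Exo1 lay under the median of all values in both normal samples. They were tested only through their signal in the tumors, and their fold changes stand over a dim baseline. A gene was tested when its signal reached the median of all values (5.74 on the log2 scale) on at least 2 arrays, and it was called at an adjusted p under 0.05 with more than a 2-fold change. By the same rule, 5.57% of all 12305 genes tested were called higher in heterozygous tumors and 4.5% lower. Bard1, Brip1, Rad54b, Eme1 and Fancd2 did not reach that signal on 2 arrays and were not tested here. With no filter on low values Rad54b was also called higher (1.44, limma adjusted p = 0.00426), which made 8 members, and the other 4 were not called. Without heterozygous sample 5-6, Rad54l, Rad51c and Msh6 also passed, which made 10 called members.

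In the homozygous tumor, 4 members rose, namely Chek1, Topbp1, Rad51ap1 and Ung, and none fell. Of all genes tested, 1.43% were called higher there and 1.3% lower. Both comparisons use the same normal samples, so that the homozygous calls are not independent of the heterozygous ones. Chek1 alone was called in the homozygous tumor when normal sample 1 was left out, and no member when normal sample 2 was left out. With Xist entered as a covariate, Chek1 (1.49, limma adjusted p = 0.0274) and Ung (2.04, adjusted p = 0.0199) kept their call, and Topbp1 and Rad51ap1 did not.

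**Figure D1:**
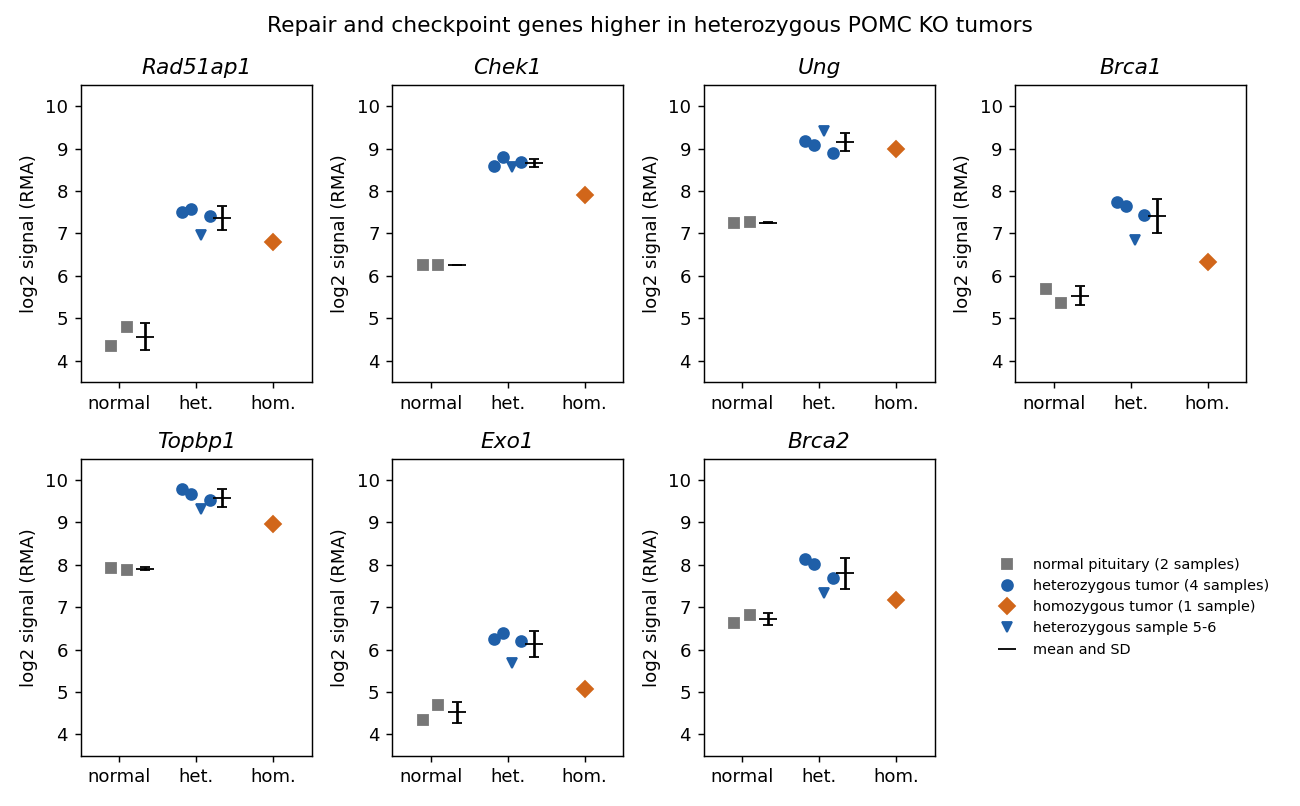
Log2 signal (y axis) of the 7 members called higher in heterozygous POMC KO tumors, by group (x axis). Points are samples, and bars at the right of a group are its mean and SD. All 4 heterozygous samples lie above both normal samples for each gene, and the homozygous tumor lies below all 4 heterozygous samples for 6 of the 7 genes, with Ung the exception.

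Chek1 encodes the kinase CHK1, which halts the cell cycle and stabilizes forks when replication stalls. Its log2 signal was 6.25 and 6.26 in the normal samples, 8.59, 8.79, 8.58 and 8.69 in heterozygous samples 1-2, 3-4, 5-6 and 7-8, and 7.90 in the homozygous tumor. The heterozygous samples lay close together and far above the normal ones, with the homozygous tumor between the groups. The log2 change was 2.40 in heterozygous tumors (standard error 0.11, limma adjusted p = 0.000144) and 1.65 in the homozygous tumor (standard error 0.16, adjusted p = 0.00698). A second probe set of Chek1 moved to the same degree (2.68 and 1.77). The next brightest rose by 1.62 in heterozygous tumors but by only 0.62 in the homozygous tumor, short of 2-fold. Another 2, which were dim throughout, were not tested. When all 5 were averaged, the change in the homozygous tumor was 0.82 and no longer passed.

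Topbp1 encodes a scaffold that activates ATR at stalled forks. Its log2 signal was 7.93 and 7.88 in normal pituitary, 9.79, 9.66, 9.31 and 9.52 in the heterozygous samples and 8.97 in the homozygous tumor. It rose by 1.67 in heterozygous tumors (standard error 0.15, limma adjusted p = 0.000634). Its change in the homozygous tumor, 1.07 (standard error 0.21, adjusted p = 0.0491), lay at the edge of both thresholds and was lost under 12 of 21 alternatives, such as repeated quantile normalization or no filter on low values. Averaged with a dim second probe set that was not tested, Topbp1 changed by 0.79 in heterozygous tumors and did not pass.

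The other checkpoint members did not pass. Chek2, the kinase that acts after ATM at double strand breaks, changed by 0.47 (adjusted p = 0.161), with log2 signals of 8.99, 8.95, 8.65 and 9.50 in the heterozygous samples, 8.93 in the homozygous tumor and 8.51 and 8.59 in normal pituitary. The kinase genes that head the pathway, Atm and Atr, differed by 0.19 (adjusted p = 0.231) and -0.13 (adjusted p = 0.506) in heterozygous tumors. A second probe set of Atm gave 0.68 (adjusted p = 0.00974), short of 2-fold.

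Among the recombination genes, Rad51ap1, whose product stimulates strand invasion, changed most. Its log2 signal was 4.34 and 4.79 in normal pituitary, which is below the array median, 7.495, 7.59, 6.96 and 7.42 in the heterozygous samples and 6.79 in the homozygous tumor. The heterozygous change was 2.80 (standard error 0.21, limma adjusted p = 0.000384) and the homozygous change 2.23 (standard error 0.30, adjusted p = 0.0171). All 3 of its other probe sets also rose in heterozygous tumors, by 2.53, 1.92 and 1.34. In the homozygous tumor they gave 1.87, 1.25 and 0.79, and only the first of these passed (adjusted p = 0.0490). With Xist entered as a covariate the homozygous change was 1.99 and did not pass.

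Brca1, the gene of the ubiquitin ligase that promotes end resection and recruits BRCA2 through PALB2, had log2 signals of 5.70 and 5.37 in normal pituitary. It reached 7.73, 7.64, 6.85 and 7.44 in the heterozygous samples and 6.32 in the homozygous tumor. It rose by 1.88 in heterozygous tumors (standard error 0.25, limma adjusted p = 0.00256), and a second tested probe set rose by 1.36 (adjusted p = 0.0129). The homozygous change of 0.79 did not pass (adjusted p = 0.302). Exo1, the exonuclease that resects broken ends and also serves mismatch repair, had log2 signals of 4.35 and 4.69 in normal pituitary, 6.25, 6.38, 5.69 and 6.21 in the heterozygous samples and 5.07 in the homozygous tumor. Its heterozygous change was 1.61 (adjusted p = 0.00239) and its homozygous change 0.55 (adjusted p = 0.389).

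Brca2, which acts on resected DNA, was the weakest call. It read 6.63 and 6.82 in normal pituitary, 8.13, 8.02, 7.34 and 7.68 in the heterozygous samples and 7.16 in the homozygous tumor on the log2 scale. The heterozygous change of 1.07 (standard error 0.22, limma adjusted p = 0.0148) fell under 2-fold without heterozygous sample 1-2 (0.96), without sample 3-4 (0.996), without normal sample 1 (0.98) and after centring on housekeeping genes (0.98). Without normal sample 2 the change was 1.16 and missed the p threshold.

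A further 3 recombination and Fanconi members had an adjusted p under 0.05 in heterozygous tumors but stayed just below 2-fold or lower. Rad54l, a motor protein gene of strand exchange, was at 0.97 (adjusted p = 0.0365), Rad51c, which acts in strand exchange, at 0.96 (adjusted p = 0.00253), and Fancb, a subunit of the Fanconi core complex, at 0.75 (adjusted p = 0.00797). Rad54l (5.31 and 5.37) and Fancb (5.29 and 5.58) lay under the array median in both normal samples. They too were tested only through their signal in the tumors. A second probe set of Rad51c passed both thresholds with 1.51 (adjusted p = 0.00158), and Rad51c was the only one of 10 members with several tested probe sets whose probe sets differed in their call in heterozygous tumors. In the homozygous tumor this held for 2, Rad51ap1 and Chek1. Rad54b, tested only with no filter on low values, read 3.46 and 3.57 in normal pituitary, 5.12, 5.15, 4.45 and 5.09 in the heterozygous samples and 4.35 in the homozygous tumor, so that its groups did not overlap.

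The remaining recombination genes did not pass. Palb2, Nbn and Blm differed by 0.46, 0.47 and 0.38 in heterozygous tumors, with adjusted p of 0.105, 0.115 and 0.0659. Palb2 and Blm lay under the array median in both normal samples and were tested only through their signal in the tumors. Xrcc3, a partner of Rad51c, and Rad50, of the complex that holds broken ends, lay at -0.04 and -0.16 with adjusted p of 0.865 and 0.579. All 6 heterozygous and normal values of Xrcc3 lay between 5.96 and 6.25 on the log2 scale.

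No Fanconi member was called in either genotype. Besides Fancb, the largest heterozygous difference was that of Fanci, a partner in the pair that is ubiquitinated at a crosslink, with log2 signals of 5.77 in both normal samples, 6.40, 6.70, 6.02 and 6.73 in the heterozygous samples and 5.85 in the homozygous tumor (change 0.69, limma adjusted p = 0.0526). Fancb itself read 5.29 and 5.58 in normal pituitary, 6.03, 6.29, 6.25 and 6.19 in the heterozygous samples and 5.87 in the homozygous tumor. Fancm (0.33), Fanca (0.22), Fancl (-0.003) and Fancc (-0.25) did not pass, and Fancd2, the partner of Fanci, was too dim to test (0.10).

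Ung stood apart among the genes of mismatch, excision and end-joining repair. It encodes uracil DNA glycosylase, which removes uracil from DNA, and part of that enzyme travels with the replication fork. Its log2 signal was 7.24 and 7.26 in normal pituitary, 9.18, 9.09, 9.42 and 8.91 in the heterozygous samples and 8.99 in the homozygous tumor. The change was 1.90 in heterozygous tumors (standard error 0.15, limma adjusted p = 0.000485) and 1.74 in the homozygous tumor (standard error 0.22, adjusted p = 0.0142), and its probe set is the only one of the gene. Unlike the other called members, Ung was highest in heterozygous sample 5-6, and its homozygous value lay within the heterozygous range.

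The other excision members were nearly level. Parp1, the sensor of strand breaks, read 9.07 and 8.93 in normal pituitary, 9.41, 9.11, 9.06 and 9.01 in the heterozygous samples and 8.92 in the homozygous tumor (change 0.15, limma adjusted p = 0.497). Its 2 other tested probe sets gave 0.28 and 0.60, the latter with an adjusted p of 0.0160. Xrcc1, the scaffold of single strand break repair, read 8.02 and 8.08 in normal pituitary, 8.43, 8.16, 8.18 and 8.01 in the heterozygous samples and 8.10 in the homozygous tumor (change 0.14, adjusted p = 0.499). The groups overlapped for both genes.

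Of the mismatch pair, Msh6, which recognizes base mismatches, lay at the fold threshold. It read 7.78 and 7.75 in normal pituitary, 8.87, 8.85, 8.43 and 8.88 in the heterozygous samples and 8.23 in the homozygous tumor. Its heterozygous change of 0.997 (standard error 0.16, limma adjusted p = 0.00474) corresponds to 1.996-fold and so missed the call by its size alone, and it was called without heterozygous sample 5-6 (1.11). Its homozygous change was 0.47 (adjusted p = 0.315). Pms2, the endonuclease subunit, read 8.24 and 8.35 in normal pituitary, 8.43, 8.43, 8.10 and 8.44 in the heterozygous samples and 8.19 in the homozygous tumor (change 0.05, adjusted p = 0.817).

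None of the end-joining genes was called. Xrcc6 and Xrcc5, which encode the Ku subunits, differed by 0.38 (limma adjusted p = 0.0434) and 0.04 (adjusted p = 0.802) in heterozygous tumors. Xrcc6 read 8.52 and 8.64 in normal pituitary, 8.96, 8.95, 8.89 and 9.04 in the heterozygous samples and 8.91 in the homozygous tumor, without overlap, whereas Xrcc5 read 8.32 and 8.35 in normal pituitary, 8.30, 8.35, 8.42 and 8.45 in the heterozygous samples and 8.28 in the homozygous tumor. Prkdc, the catalytic kinase that binds Ku, read 7.60 and 7.66 in normal pituitary, 7.94, 8.01, 7.81 and 8.10 in the heterozygous samples and 7.61 in the homozygous tumor (change 0.33, adjusted p = 0.0854). All 4 heterozygous samples were above normal, but the change did not pass. Lig4, the ligase of the pathway, read 8.37 and 8.40 in normal pituitary, 7.61, 8.20, 8.51 and 8.03 in the heterozygous samples and 8.31 in the homozygous tumor (change -0.30, adjusted p = 0.391), with its lowest value in heterozygous sample 1-2.

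**Figure D2:**
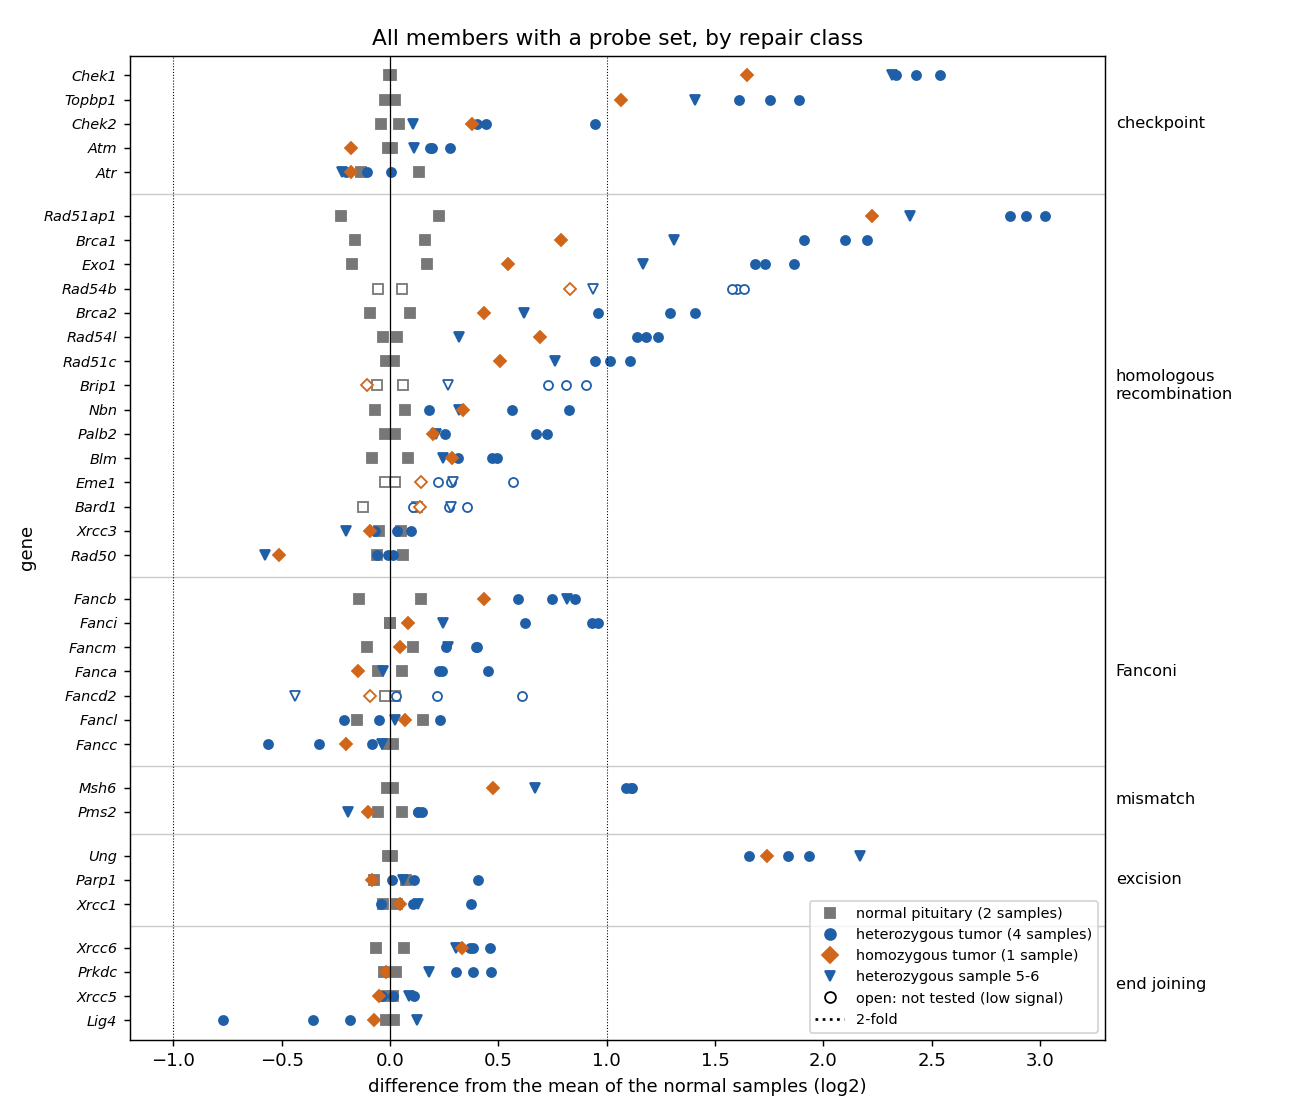
Difference of each sample from the mean of the 2 normal samples (x axis, log2) for the 36 members with a probe set (y axis), ordered by repair class and by heterozygous change. Dotted lines mark a 2-fold change and open symbols genes that were not tested, and the points past 2-fold lie mostly among the checkpoint and recombination genes, with Ung and, in part, Msh6 outside them.

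Set side by side, 4 of the 17 tested homologous recombination and Fanconi members rose in heterozygous tumors and 1 in the homozygous tumor, and 1 of the 9 tested mismatch, excision and end-joining members rose in each. Of all genes tested, 5.57% and 1.43% were called higher in the heterozygous and the homozygous comparison. Among the 4, Rad51ap1, which is also the homozygous call, Brca1 and Exo1 were tested only through their signal in the tumors. The counts of the classes thus do not stand on the same footing. Over all members with a probe set, tested or not, the median heterozygous change was 0.47 for the 22 recombination and Fanconi genes and 0.15 for the 9 others, beside a median of -0.03 over all 18193 genes. In the homozygous tumor the medians were 0.17 and -0.02, beside -0.04 over all genes. Recombination genes alone had a heterozygous median of 0.68, Fanconi genes 0.22 and checkpoint genes 0.47. On the other side, the 2 mismatch genes had a median of 0.52, excision genes 0.15 and end-joining genes 0.19. The difference between the classes was not tested, and 12 of the 22 recombination and Fanconi genes but none of the 9 others lay under the array median in normal pituitary.

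The order of the pooled classes was the same in each tumor sample, but not that of their parts. Fanconi genes alone had medians of 0.45, 0.22, 0.02 and 0.24 in heterozygous samples 1-2, 3-4, 5-6 and 7-8 and 0.05 in the homozygous tumor. These lay below the medians of the mismatch genes alone, 0.62, 0.61, 0.24 and 0.63, and 0.18 in the homozygous tumor. The median of the recombination and Fanconi genes above normal exceeded that of the mismatch, excision and end-joining genes by 0.23, 0.51, 0.15 and 0.42 in heterozygous samples 1-2, 3-4, 5-6 and 7-8, and by 0.19 in the homozygous tumor. In the normal samples, which form the zero, the same quantity was 0.01 and -0.01. The smallest heterozygous value, that of sample 5-6, lay below the homozygous one, so that the size of the gap did not separate the genotypes.

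**Figure D3:**
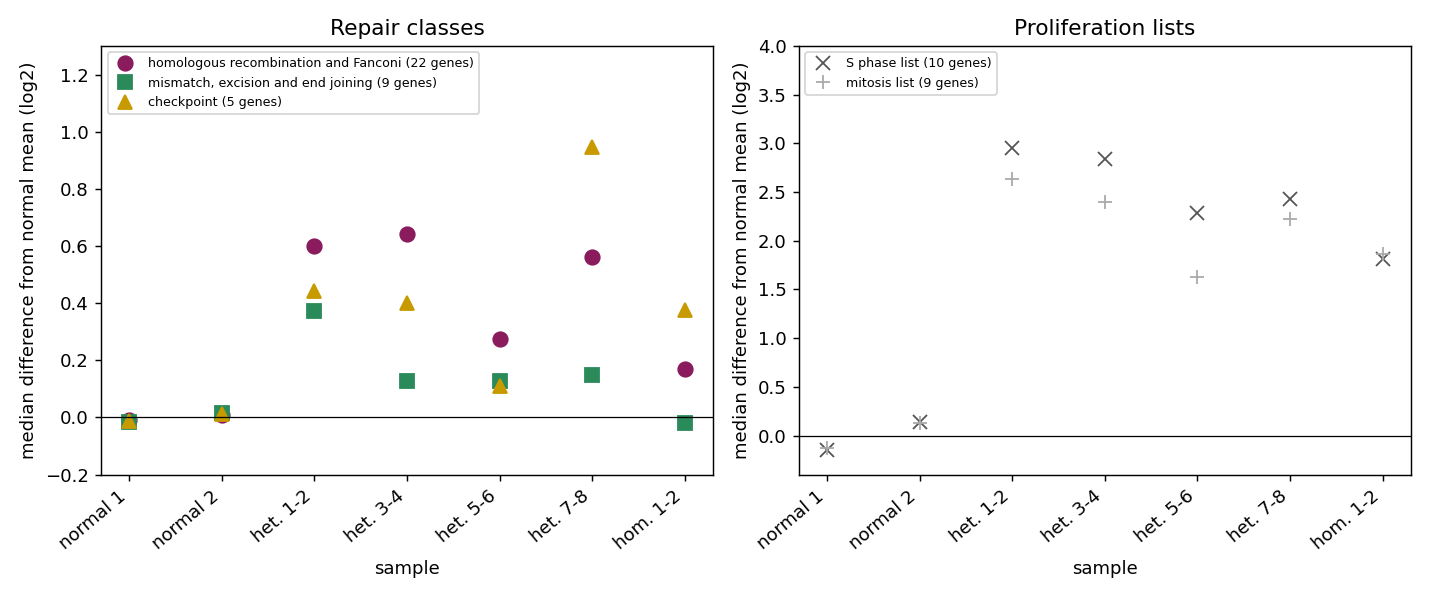
Median difference from the normal mean (y axis, log2) in each of the 7 samples (x axis) for 3 groups of members, left, and for the lists of S phase and mitosis genes, right; each point is a median over genes and has no error bar. In all 5 tumor samples the recombination and Fanconi genes lie above the mismatch, excision and end-joining genes, and among the heterozygous samples 5-6 is lowest for the recombination and Fanconi genes and for both proliferation lists.

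Many members separated heterozygous tumors from normal pituitary without reaching the call. For 23 of the 36 members all 4 heterozygous samples lay above both normal samples, and for 1, Fancc, all lay below, whereas 19.8% of all genes were arranged the first way and 24.6% the second. By class, 12 of 15 recombination genes, 3 of 7 Fanconi genes, 4 of 5 checkpoint genes and 4 of the 9 mismatch, excision and end-joining genes lay above.

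The homozygous tumor showed smaller values than the heterozygous tumors. It was below the heterozygous mean for 33 of the 36 members, beside 53.8% of all genes, and below all 4 heterozygous samples for 20 of them, beside 24.7% of all genes. Among the 7 members called higher in heterozygous tumors this held for 6, beside 70.5% of the 685 genes called higher. The median difference of homozygous minus heterozygous was -0.30 for the recombination and Fanconi genes and -0.16 for the mismatch, excision and end-joining genes. Brca1 (-1.09, standard error 0.33, limma adjusted p = 0.342), Exo1 (-1.07, standard error 0.27, adjusted p = 0.265) and Chek1 (-0.76, standard error 0.15, adjusted p = 0.158) had the largest differences among the tested members, and that of Ung was -0.16 (standard error 0.20, adjusted p = 0.926).

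None of these differences between the genotypes passed in limma. Without adjustment, 7 of the 31 tested members had a p under 0.05, beside 10.6% of all genes tested, and among all genes 0.228% were called higher and 0.0488% lower in the homozygous tumor than in heterozygous tumors. With the 12 arrays taken as separate samples, 2 members, Brca1 and Exo1, were called lower in the homozygous tumors. That fit counts near-identical arrays as replicates.

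Among the heterozygous samples, 5-6 had the lowest value for 24 of the 36 members, beside 24.2% of all genes. This held for 12 of 15 recombination genes, all 5 checkpoint genes, 3 of 7 Fanconi genes and 4 of the 9 mismatch, excision and end-joining genes. Sample 5-6 was also lowest for 9 of 10 S phase genes and all 9 mitosis genes measured. Mki67, the proliferation marker, read 9.13 in that sample, against 10.19, 10.16 and 9.99 in the other heterozygous samples, 9.203 in the homozygous tumor and 7.09 and 7.35 in normal pituitary.

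The S phase genes, which include the MCM helicase subunits and both ribonucleotide reductase genes, rose in 10 of 10 cases in heterozygous tumors and in 6 in the homozygous tumor, with medians of 2.67 and 1.81. Of the 9 mitosis genes with a probe set, 8 rose in heterozygous tumors and 4 in the homozygous tumor, with medians of 2.35 and 1.87. These medians were larger than those of any repair class. In bulk tissue a larger share of dividing cells and more RNA per cell cannot be told apart, and the part of proliferation in the repair genes' values was not tested.

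Macrophage markers moved in the same comparisons. Of 12, 9 rose in heterozygous tumors and 2 in the homozygous tumor, with medians of 1.51 and 0.87. Of all genes tested, 5.57% and 1.43% were called higher in these comparisons. Their summed linear signal was 1301 to 1565 in the normal samples, 4906 to 9015 in the heterozygous samples and 3692 in the homozygous tumor, and 3 of the 12 lay under the array median in normal pituitary. Unlike most recombination genes, none of the 12 was lowest in heterozygous sample 5-6. Markers of other cell types were mixed, and of all genes tested 4.5% were called lower in heterozygous tumors. Of the fibroblast markers, Col1a1 and Col3a1 were higher in heterozygous tumors (0.48 and 0.54) without passing, and the pituitary marker Pax7 was called higher (1.48). No lymphocyte or erythrocyte marker was called, with only 1 tested in each list. In heterozygous tumors 3 of 6 fibroblast markers fell, as did 2 of 5 glial markers (Slc1a3 at -3.23 and Aqp4 at -1.12 on the log2 scale), 1 of 6 endothelial markers (Tek, -1.42) and 3 of 10 pituitary markers, the hormone genes Fshb, Lhb and Tshb (-5.89, -4.84 and -3.90). In the homozygous tumor only Slc1a3 (-2.51) and Pomc fell among these markers, and Pitx1 of the pituitary list was called higher (1.14). The part of these cells in the repair genes' values was not tested.

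Beyond the members, 84 other genes of the same pathways were listed, 75 had a probe set and 69 were tested. In heterozygous tumors 14 rose and none fell, with a median of 0.21 over the 75. In the homozygous tumor 5 rose and 1 fell. Of all genes tested, 5.57% were called higher and 4.5% lower in heterozygous tumors, and 1.43% higher and 1.3% lower in the homozygous tumor. By class, 6 of 16 other checkpoint genes, 4 of 17 recombination genes, 1 of 6 Fanconi genes, 1 of 4 mismatch genes, 2 of 23 excision genes and none of 3 end-joining genes rose in heterozygous tumors. The mismatch gene was Pcna, the clamp of the replication fork, which also stands in the list of S phase genes. Several of these class counts are small, and differences between the classes were not tested.

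Of the 6 genes with the largest of these changes, Hells, a chromatin remodeler used in recombination, rose most, by 3.36 in heterozygous tumors (standard error 0.21, limma adjusted p = 0.00026) and by 2.42 in the homozygous tumor (standard error 0.29, adjusted p = 0.0127). Clspn, encoding claspin, the adaptor through which ATR activates CHK1, rose by 2.71 in heterozygous tumors (adjusted p = 0.000886). Its homozygous change was 1.70 (adjusted p = 0.0698). Hells and Clspn lay under the array median in both normal samples and were tested only through their signal in the tumors. Tipin, which holds claspin at the fork together with TIMELESS, rose by 1.84 and 1.42 in the 2 genotypes (adjusted p = 0.000426 and 0.0208).

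Ube2t, the ubiquitin-conjugating enzyme of the Fanconi pathway, rose by 2.23 in heterozygous tumors (limma adjusted p = 0.00227), although no Fanconi member did. Dna2, a nuclease of end resection, and Lig1, the ligase that seals Okazaki fragments and excision patches, rose by 2.06 and 1.96 (adjusted p = 0.000886 and 0.00241). None of these 3 passed in the homozygous tumor, with changes of 1.57, 1.07 and 1.13. Ube2t lay under the array median in both normal samples and was tested only through its signal in the tumors.

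Fance, a subunit of the Fanconi core complex, fell in the homozygous tumor. It read 8.49 and 8.54 in normal pituitary, 8.70, 8.19, 8.46 and 7.99 in the heterozygous samples and 6.92 in the homozygous tumor on the log2 scale. The change was -1.60 in the homozygous tumor (standard error 0.28, limma adjusted p = 0.0351) and -0.18 in heterozygous tumors (adjusted p = 0.553). This value rests on 1 averaged sample, and the call was lost when either normal sample or heterozygous sample 3-4 was left out, with the mean over probe sets (-0.98) and with Xist as a covariate (-1.09). Xpc, which recognizes damage in nucleotide excision repair and was chosen after its values were seen, read 8.63 and 8.55 in normal pituitary, 7.46, 7.61, 7.56 and 7.98 in the heterozygous samples and 7.84 in the homozygous tumor. All 4 heterozygous samples lay below both normal samples. Its heterozygous change of -0.94 (standard error 0.16, limma adjusted p = 0.00663) missed the fold threshold, and it was called lower under 7 of 21 alternatives, such as centring on housekeeping genes (-1.03).

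The RefSeq promoter table for GRCm38.p6, which spans 250 bases before to 50 bases after each start site, held promoters of 30 of the 37 members. Searched on both strands were the E2F core, written as TTCCCGC or TTCGCGC or TTGCCGC or TTGGCGC, the CHR element of late cell cycle genes, TTTGAA or TTCGAA, and the CCAAT box. Of the 6 called members with a promoter in the table, 5 held an E2F core, as did 11 of 21 members tested but not called. Among 14453 genes of the array with a promoter, 2311 held one. The shares were 10 of 17 for the recombination and Fanconi genes and 4 of 8 for the mismatch, excision and end-joining genes. These counts are small, and the difference between the classes was not tested.

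The E2F cores of the called members are shown with up to 10 bases on either side, in the direction of the gene, with the core in capitals. Those of Brca1, Brca2, Chek1 and Rad51ap1 are on the opposite strand, and Topbp1 holds a pair on both strands that overlap, of which the first is shown. The windows lie at chr11:101551918-101551944 (minus strand), chr5:150522443-150522469 (plus strand), chr9:36726609-36726625 (minus strand), chr6:126939559-126939585 (minus strand) and chr9:103305185-103305211 (plus strand), and the core starts at base 22, -168, 44, 13 and -132 from the annotated start site.
Brca1: ctagcgctagGCGCCAAgcggccggtt
Brca2: ttaggccacaGCGGGAAacagacacac
Chek1: gcaggttttgGCGGGAA
Rad51ap1: ctggttttcgGCGGGAAttgaaaccgc
Topbp1: gtccgctcggTTGGCGCgaaagtcggt
Brca2, Chek1 and Rad51ap1 held the same 7 letters, and the cores of Brca1, Chek1 and Rad51ap1 lay after the start site.

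The 250 bases before the start site are given for the recombination gene and the excision gene with the largest called change, Rad51ap1 (GRCm38.p6, chr6:126939588-126939837, minus strand) and Ung (chr5:114130185-114130434, plus strand). CCAAT boxes, here on the opposite strand as ATTGG, are in capitals. No Fanconi gene was called, and none is shown.
Rad51ap1: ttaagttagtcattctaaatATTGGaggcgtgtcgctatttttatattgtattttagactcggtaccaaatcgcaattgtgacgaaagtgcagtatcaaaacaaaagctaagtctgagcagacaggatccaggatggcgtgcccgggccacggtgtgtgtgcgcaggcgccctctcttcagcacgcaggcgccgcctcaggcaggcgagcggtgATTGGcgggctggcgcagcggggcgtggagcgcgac
Ung: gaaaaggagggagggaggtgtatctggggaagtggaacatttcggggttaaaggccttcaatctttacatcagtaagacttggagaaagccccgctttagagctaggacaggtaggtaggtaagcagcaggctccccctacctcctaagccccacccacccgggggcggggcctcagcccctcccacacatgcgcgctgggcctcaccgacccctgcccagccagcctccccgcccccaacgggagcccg
Ung, the called member without an E2F core, held none of the 3 motifs in its whole window, which says only that these letters are absent from it. CCAAT boxes were held by 18 of the 30 members, beside 42.0% of genes of the array, and CHR elements by 3, beside 17.5%.

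**Figure D4:**
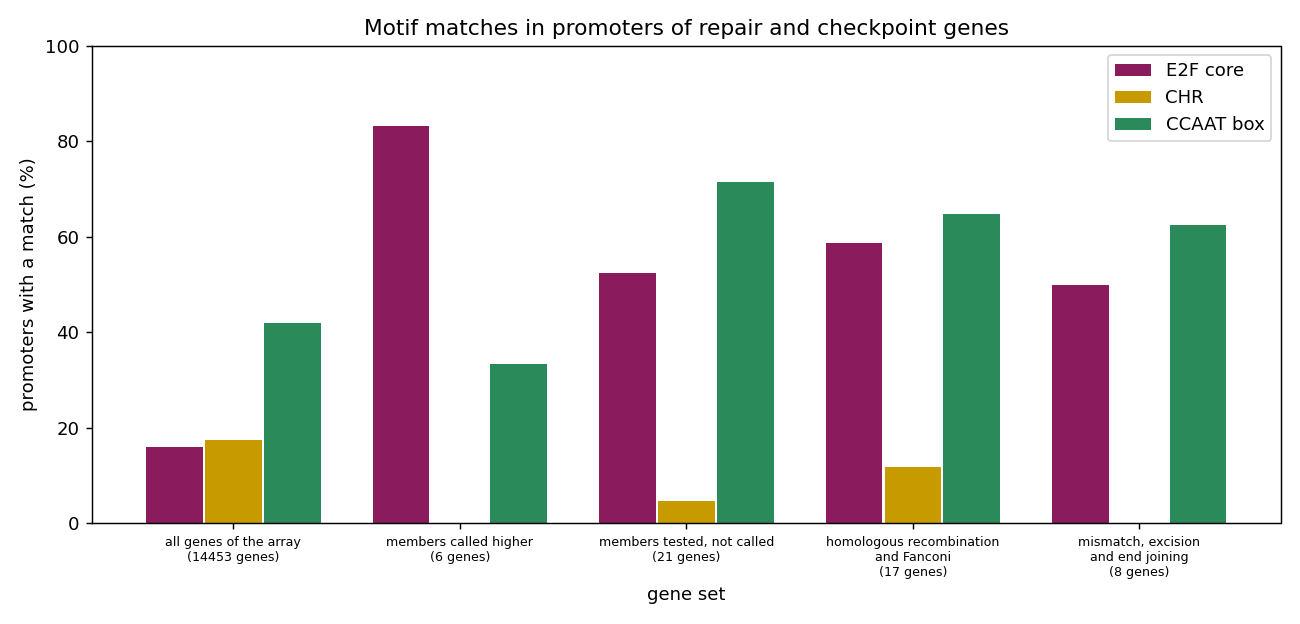
Percentage of promoters (y axis) with at least 1 match to the E2F core, the CHR element or the CCAAT box in the 300-base window, for all genes of the array and for groups of members (x axis, with the number of genes). E2F cores are held by 83.3% of called members, 52.4% of members tested but not called and 2311 of 14453 genes of the array.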

How the data were processed

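Total RNA of pituitary was hybridized to 12 Affymetrix arrays. The study's methods name TRIzol extraction for the tumors and profiling of samples with RIN over 7. The authors deposited log2 values, made with the Robust Multichip Average (RMA) algorithm. The labels name Affymetrix Expression Console, and the study's methods name GeneSpring GX. Raw images and detection calls were not used here. An array gives no read depth, and the number of samples limits the precision.

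Of 45101 probe sets, 64 were controls, 34945 named 1 gene, 932 several and 9160 none. Limma 3.58.1 in R 4.3.3 was fitted to 7 samples in 3 groups (4 residual degrees of freedom) over 24486 probe sets with a signal at or above 5.74 on 2 arrays, with Benjamini-Hochberg adjustment over these. The single homozygous sample takes its spread from the other groups. The fit was tested on simulated data. P-values measure the spread between these samples, which may be partly technical. Counts of all genes and of members follow the same choice of probe set.

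The members and lists were chosen with earlier results of these data known. Every member may be named. Of other repair genes, the 6 with the largest called heterozygous change and any that fell are named, and Pax7 and Xpc were added after their values were seen. Samples, filter, normalization, centring, choice of probe set, variance model, thresholds, Xist as a covariate and a one-way test were varied. A fit without the 2 heterozygous samples of high Xist was added after seeing the data.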

Additional observations from a re-analysis of the deposited data

Results flagged for a closer look

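Each of the 36 members with a probe set was examined for a single heterozygous sample far from the other 3, and 5 were found, all in sample 5-6 and all low. The nominal rate of about 1 in 20 groups assumes independent values, and the share over all genes was not determined. Sample 5-6 was the lowest heterozygous sample for 24 of the 36 members, so that the 5 cannot be read as separate findings. The log2 signals in that sample were 5.65 for Rad54l, 4.45 for Rad54b, 6.97 for Rad50, 8.43 for Msh6 and 8.10 for Pms2. Rad54l, Rad54b and Msh6 remained above both normal samples there, whereas Rad50 and Pms2 lay below both. The mitosis and S phase lists were lower in the same sample, and the part of this in the repair genes' values was not tested.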

How the results depend on the processing

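Of the heterozygous calls, 7 members became 12 with no fold threshold and 11 with one of 1.5. The recombination and Fanconi count of 4 became 7 under both, that of mismatch, excision and end joining changed from 1 to 3 and 2, and that of other repair genes from 14 to 27 with no fold threshold. Leaving out 1 sample gave 6 to 10 members, 3 to 6 of recombination and Fanconi, 1 to 2 of the other classes and 12 to 15 other repair genes. The homozygous calls rest on both normal samples. Leaving out 1 sample gave 0 to 4 members, with 1 left without normal sample 1 and 0 without normal sample 2, 0 to 1 in either class and 0 to 9 other repair genes, with 2 without heterozygous sample 3-4. With the mean over probe sets 2 members were called, with Xist as a covariate 2 members, no recombination gene and 1 other repair gene, and with the probe set brightest in normal arrays no recombination gene. With the 12 arrays as separate samples, other repair genes rose from 6 to 13, with pairs as a random block to 11 and in the one-way test to 13.

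The replicate numbers of the labels pair no samples across groups, since arrays 1 and 2 of a tumor group are near-duplicates. The replicate block gave 2 calls for mismatch, excision and end joining in heterozygous tumors with a median of 0.37, 13 other repair genes in the homozygous sample, and 2 members, both recombination genes, and 5 other repair genes between the genotypes. Between the genotypes, where no member and no other repair gene passed, 12 separate arrays gave 2 members, both of them recombination genes, and 2 other repair genes, while the random block and the fit without the heterozygous samples of high Xist each gave 1 other repair gene and no member. Leaving out 1 sample gave 0 members and 0 to 1 other repair genes. The homozygous median of the mismatch, excision and end-joining genes, -0.019, turned to 0.047 with the mean over probe sets, to 0.10 with Xist and to 0.0065 without normal sample 2, within a range of -0.0192 to 0.0065 when 1 sample was left out. The other medians and class differences kept their direction. For single members, 1860 values under the alternatives kept their call, 27 lost it and 20 gained it. The cause was not tested. The homozygous group is 1 averaged sample, and the 5 members too dim for the filter were tested only without it, when 8 members and 5 recombination and Fanconi genes were called in heterozygous tumors.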
